A study of Mus musculus with 6 samples.

Results

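Slc9a4 and 6 other sodium-proton exchanger genes, Slc9a2, Slc9a3, Slc9a5, Slc9a7, Slc9a8 and Slc9a9, were followed across the 6 arrays of a comparison between macrophages lacking Tet2 and wild-type macrophages. The 7 genes were taken by name, each is represented by 1 probe set, and together they make up 7 of the 25206 probe sets of the array. Slc9a4 was chosen by its measured level, which was lower on every Tet2-/- array, so its difference between the genotypes is given as a description with no test, whereas the other 6 genes entered the set as its relatives. The arrays hold RNA of 3 samples of Tet2-/- macrophages and 3 samples of macrophages from wild-type littermates, both of strain C57BL/6J and both labelled biological replicates 4, 5 and 6. Both groups received 1 mL of 4% Brewer's thioglycollate into the peritoneal cavity, an irritant that draws macrophages there. The cells were collected on day 4, plated with no stimulus and lysed for RNA 10 h later. No source used here gives the form of the Tet2 allele, the cells in which it is deleted or the ages of the animals. Nor is it stated that replicates came from different animals, and p-values then reflect only how these samples vary, which may be technical.

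Sodium-proton exchangers carry a sodium ion across a membrane in one direction and a proton in the other. At the cell surface they expel acid and help to restore cell volume, and on Golgi and endosome membranes they move protons out of the organelle and so work against the vacuolar proton pump. Slc9a4 (NHE4) is best known at the basolateral surface of acid-secreting stomach cells and in kidney tubules, and Slc9a2 (NHE2) and Slc9a3 (NHE3) at the apical surface of gut and kidney epithelium. Slc9a5 (NHE5) is known mainly from the nervous system, Slc9a7 (NHE7) from the trans-Golgi network, Slc9a8 (NHE8) from the Golgi and the apical membrane of epithelia, and Slc9a9 (NHE9) from recycling endosomes. In macrophages proton export follows from glycolysis and the respiratory burst.

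The labels themselves carry a contradiction that bears on every direction below. For 4 of the 6 samples the genotype characteristic names the other genotype than the title, and groups were taken from the title, as the choice of Slc9a4 was. The Tet2 probe set does not settle it: its log2 level was 3.8, 4.05 and 3.67 in Tet2-/- replicates 4, 5 and 6, against 4.35, 3.74 and 3.79 in the wild-type replicates, and no source used here places its probes relative to the deletion. The array labelled Tet2-/- replicate 6 stood apart, with the highest median level (2.93 log2 units, against 2.77 to 2.82 on the other 5). Its quartiles also lay closest together. The lower quartile was the highest (1.9, against 1.72 to 1.81) and the upper quartile the lowest (4.89, against 4.97 to 5.05). Its correlation with the remaining arrays was, on average, the lowest (across probe sets, 0.982, against 0.986 to 0.989). Differences that turn, change their call or move by over 1.5 times without this array are also given without it. Calls are left out for Slc9a4 and for the genes chosen by likeness to it. All 7 measured macrophage markers of 9 listed, among them Csf1r, Adgre1 and Cd68, lay above the upper quartile of all probe sets on all 6 arrays. In RNA from a whole culture, fewer cells of a type and less RNA per cell cannot be told apart.

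The promoters of Slc9a7, Slc9a8 and Slc9a9 are shown because these 3 genes shared their lowest array, described below, and because Tet2 acts on methylated cytosine, which in mammalian DNA lies mostly in CG pairs. Each is the stretch of 250 bases before the start of the gene, 5′ to 3′ along the gene, from RefSeq on build GRCm38.p6, with every CG in capitals. The positions are chrX:20291828-20292077, minus strand, for Slc9a7, chr2:167421460-167421709, plus strand, for Slc9a8, and chr9:94669642-94669891, plus strand, for Slc9a9.
Slc9a7: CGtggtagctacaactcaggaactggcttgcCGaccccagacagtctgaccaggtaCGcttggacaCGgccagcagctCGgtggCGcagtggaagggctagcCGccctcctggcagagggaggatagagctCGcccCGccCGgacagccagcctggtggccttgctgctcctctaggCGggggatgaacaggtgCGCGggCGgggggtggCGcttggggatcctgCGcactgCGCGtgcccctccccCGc
Slc9a8: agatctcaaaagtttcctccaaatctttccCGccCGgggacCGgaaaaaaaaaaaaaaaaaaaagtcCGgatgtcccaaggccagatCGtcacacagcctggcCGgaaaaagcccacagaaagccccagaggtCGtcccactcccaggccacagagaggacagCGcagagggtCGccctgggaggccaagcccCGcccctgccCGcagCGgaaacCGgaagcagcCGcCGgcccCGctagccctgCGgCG
Slc9a9: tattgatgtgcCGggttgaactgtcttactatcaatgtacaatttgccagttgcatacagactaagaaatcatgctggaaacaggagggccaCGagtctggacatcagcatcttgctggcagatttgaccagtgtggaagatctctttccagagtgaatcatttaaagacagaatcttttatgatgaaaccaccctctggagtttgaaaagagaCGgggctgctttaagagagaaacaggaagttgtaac

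Promoter sequence was found for 5 of the 7 genes, the others being Slc9a2 and Slc9a4. The Slc9a7 promoter holds 19 CG pairs and the Slc9a8 promoter 18, which is more than in 80.3% and 78.3% of the 32851 promoters of the table. Slc9a9 differs from them with 3 CG pairs, more than in 29% of promoters, where the median is 6. Slc9a3 has 19 and Slc9a5 has 18. The core GAGGAA, bound by the macrophage factor PU.1, occurs 1 time in the Slc9a8 promoter on either strand and not in the other 4, and 23.3% of all promoters hold it. CCGGAA, a core of other ETS factors that cannot coincide with GAGGAA at one place, occurs 3 times in the Slc9a8 promoter and in 12% of all promoters. The E-box CACGTG occurs 1 time in the Slc9a3 promoter, and 6.02% of promoters hold it. These matches describe letters in the windows and say nothing of binding.

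Slc9a4 was lower on all Tet2-/- arrays than on any wild-type array. Its log2 level was 2.26, 2.24 and 2.50 in Tet2-/- replicates 4, 5 and 6, against 3.49, 4.09 and 3.88 in wild-type replicates 4, 5 and 6. The lowest wild-type array lay 0.99 log2 units above the highest Tet2-/- array, and this gap was wider than the range within either group. The means were 2.33 ± 0.145 in Tet2-/- and 3.82 ± 0.304 in wild-type cells (SD, n = 3 each), a difference of -1.49, or 0.357-fold. The gene was selected on this separation, which therefore supports nothing further. Groups that do not overlap, with Tet2-/- lower, were found for 4.07% of the 25206 probe sets. Counting Slc9a4 itself, 4 probe sets had a difference at least as negative as that of Slc9a4.

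**Figure D1:**
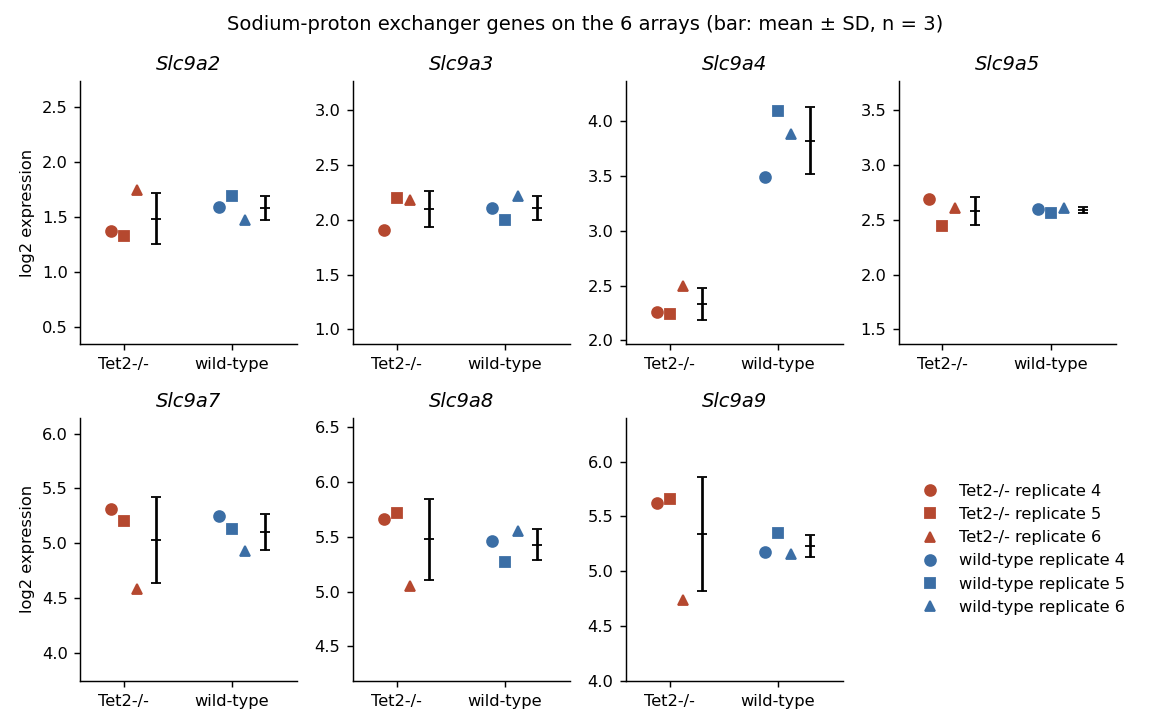
Log2 expression of the 7 exchanger genes, 1 panel per gene, with Tet2-/- arrays on the left and wild-type arrays on the right. Marker shapes give the replicate number, and bars give the mean ± SD (n = 3). Each vertical axis spans the same number of log2 units. Slc9a4 is separated between the genotypes (2.24 to 2.50 against 3.49 to 4.09), and for Slc9a7, Slc9a8 and Slc9a9 the triangle of Tet2-/- replicate 6 is the lowest point.

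The wild-type arrays carried a Slc9a4 signal above the middle of the array and the Tet2-/- arrays did not. Relative to the median of all probe sets on the same array, Slc9a4 stood at -0.53, -0.525 and -0.43 log2 units on Tet2-/- replicates 4, 5 and 6, against 0.72, 1.27 and 1.06 on the wild-type replicates. A level under the array median is dim for this method, which compresses differences near background and can understate a fold difference. Choosing a gene by its fall can overstate that fall, and neither effect was measured. Tet2-/- replicate 6, which stood apart in other respects, did not do so here: without it the difference was -1.57. Leaving out any single array gave differences from -1.65, without wild-type replicate 4, to -1.35, without wild-type replicate 5.

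None of the other 6 exchangers passed limma's moderated test between the genotypes (adjusted p = 0.998 for each, Benjamini-Hochberg over all 25206 probe sets), and none reached an unadjusted p under 0.05. By the same test 0% of all probe sets passed at an adjusted p under 0.05, and 3.61% had an unadjusted p under 0.05. For all 6 genes the groups overlapped, against 7.41% of probe sets whose groups did not.

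The epithelial surface exchangers next to Slc9a4 in the family, Slc9a2 and Slc9a3, were dim in both genotypes. Slc9a2 was at 1.37, 1.33 and 1.75 log2 units in Tet2-/- replicates 4, 5 and 6, against 1.59, 1.69 and 1.47 in wild-type replicates, below the lower quartile of all probe sets on all 6 arrays. The Tet2-/- minus wild-type difference was -0.10 (95% confidence interval -0.45 to 0.25). Slc9a3 was at 1.91, 2.20 and 2.18 in Tet2-/- and at 2.11, 2.0 and 2.22 in wild-type cells, a difference of -0.013 (-0.33 to 0.31), and lay below the array median throughout. The neuronal exchanger gene Slc9a5 was at 2.69, 2.44 and 2.61 in Tet2-/- and at 2.60, 2.56 and 2.61 in wild-type cells, a difference of -0.010 (-0.30 to 0.28). It too lay below the array median on all 6 arrays. The intervals of these 3 genes leave out a difference of the size of that of Slc9a4, but near background a difference in RNA can be compressed.

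The organelle exchangers Slc9a7, Slc9a8 and Slc9a9 lay well above the array median on every array, by 1.65 to 2.96 log2 units, and their means lay close together in both genotypes. Slc9a7 was at 5.31, 5.20 and 4.58 log2 units in Tet2-/- replicates 4, 5 and 6, against 5.25, 5.13 and 4.93 in wild-type replicates 4, 5 and 6, a difference of -0.073 (-0.53 to 0.39). Slc9a8 was at 5.66, 5.72 and 5.05 in Tet2-/- and at 5.46, 5.27 and 5.55 in wild-type cells, a difference of 0.05 (-0.39 to 0.49). Slc9a9 was at 5.62, 5.66 and 4.74 in Tet2-/- and at 5.18, 5.35 and 5.16 in wild-type cells, a difference of 0.11 (-0.43 to 0.65). For all 3 genes Tet2-/- replicate 6 was the lowest of the 6 arrays, as it was for 20.5% of all probe sets. That share counts dim and bright probe sets alike, and this array had the lowest upper quartile. The SD within the Tet2-/- group was 0.394, 0.371 and 0.520 for Slc9a7, Slc9a8 and Slc9a9, against 0.162, 0.143 and 0.104 within the wild-type group.

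**Figure D2:**
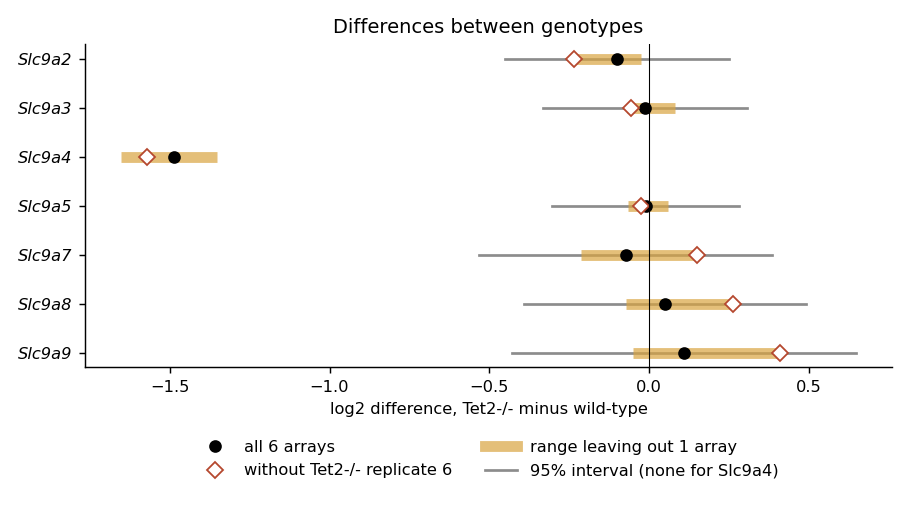
Log2 difference of each exchanger gene, Tet2-/- minus wild-type. Black points use all 6 arrays, open diamonds leave out Tet2-/- replicate 6, thick bands give the range when single arrays are left out, and thin lines are 95% confidence intervals from limma, drawn for the 6 tested genes. Slc9a4 lies at -1.49, while the other 6 lie between -0.10 and 0.11 and their intervals include 0.

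Without Tet2-/- replicate 6 the picture of Slc9a8 and Slc9a9 was different. Both remaining Tet2-/- arrays were then above all wild-type arrays for both genes. The difference of Slc9a9, the recycling endosome exchanger, was 0.41 (SE 0.131, 95% confidence interval 0.11 to 0.71, limma adjusted p = 0.398). The difference of Slc9a8, the Golgi exchanger, was 0.26 (-0.051 to 0.58, limma adjusted p = 0.571), and that of Slc9a7 0.15 (-0.17 to 0.48, limma adjusted p = 0.760), with overlapping groups. Slc9a2 was then lower on both Tet2-/- arrays than on any wild-type array, by -0.23 (limma adjusted p = 0.593), while Slc9a3 and Slc9a5 differed by -0.055 and -0.025 with overlapping groups. With 2 arrays against 3 the groups did not overlap for 25.7% of all probe sets, and 0.0754% passed at an adjusted p under 0.05, so 3 separated genes of 6 tested are read against a high background.

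On average the markers of macrophages were likewise lowest on Tet2-/- replicate 6. Singly, Cd14 was lowest on wild-type replicate 5 (8.57, against 8.63 on Tet2-/- replicate 6). Mertk was lowest on wild-type replicate 6 (7.39, against 7.55 on Tet2-/- replicate 6). As log2 values minus the 6-array mean, the 7 measured markers averaged 0.21, 0.35 and -0.42 in Tet2-/- replicates 4, 5 and 6, against 0.17, -0.17 and -0.13 in the wild-type replicates. Slc9a9 stood at 0.335, 0.375 and -0.545 on the Tet2-/- arrays, against -0.105, 0.065 and -0.125 on the wild-type arrays. Slc9a8 stood at 0.21, 0.27 and -0.40 on the Tet2-/- arrays, against 0.0083, -0.18 and 0.098 on the wild-type arrays. Summed on the linear scale, the markers ranged from 3248 to 5618 in Tet2-/- and from 4088 to 5147 in wild-type cells. Neither the part of macrophage content nor that of the closer quartiles of Tet2-/- replicate 6 in the levels of Slc9a8 and Slc9a9 was tested. Without Tet2-/- replicate 6 the marker list had 6 genes higher and 1 lower (median 0.27), against 4 higher and 3 lower (median 0.15) with it. Slc9a4 was low on all 3 Tet2-/- arrays.

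**Figure D3:**
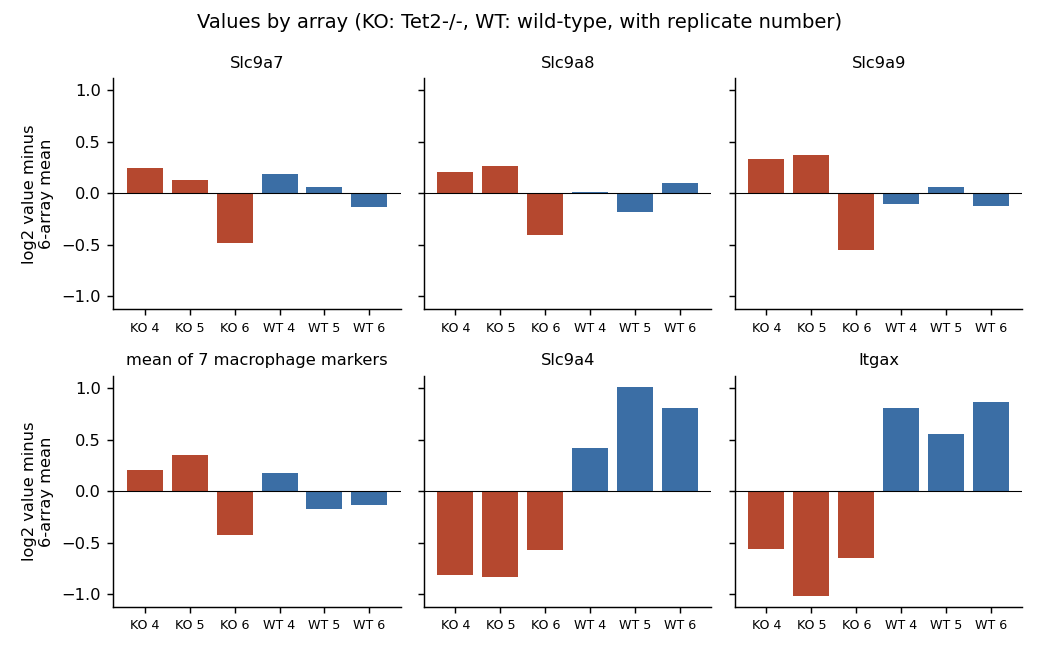
Log2 value minus the mean over the 6 arrays, by array, for Slc9a7, Slc9a8, Slc9a9, the mean of 7 macrophage markers, Slc9a4 and Itgax. Red bars are Tet2-/- (KO) and blue bars wild-type (WT) arrays. Tet2-/- replicate 6 is the lowest bar in the first 4 panels (-0.42 for the markers, -0.545 for Slc9a9), whereas Slc9a4 and Itgax are below 0 on all 3 Tet2-/- arrays and above 0 on all 3 wild-type arrays.

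Markers of other cell types that the peritoneal cavity could supply were read beside Slc9a4, and no marker was at 0 on this scale. The gastric epithelium list, the tissue in which Slc9a4 is best known, had 9 of 9 genes measured, 6 higher and 3 lower, with a summed linear level of 45.9 to 53.2 in Tet2-/- and 46.8 to 49.7 in wild-type cells. Of its genes 7 lay below the array median on all 6 arrays. The mesothelial and epithelial list (9 of 9 measured, 4 higher and 5 lower) summed to 156 to 235 in Tet2-/- and 175 to 203 in wild-type cells. Eosinophil markers (5 of 7 measured) summed to 25.4 to 39.3 in Tet2-/- and 46.2 to 60.7 in wild-type cells, but only 3 of the 5 had the lower mean in Tet2-/- cells and 2 the higher (median -0.013). The lectin gene Siglecf, which some macrophages also express, had the largest difference of the list, at 4.65, 3.58 and 4.12 log2 units in Tet2-/- replicates against 5.37, 5.58 and 5.02 in wild-type replicates (limma adjusted p = 0.879). The eosinophil granule genes Epx and Prg2, the chemokine receptor gene Ccr3 and the receptor gene Il5ra lay below the array median on all 6 arrays, with differences from -0.07 to 0.27. For Il5ra, at 0.27, the groups did not overlap and Tet2-/- was the higher.

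B-cell markers moved in the other direction, with the higher mean in Tet2-/- cells for all 7 measured of 8 listed. Their sums were 63.1 to 331 in Tet2-/- and 52.1 to 102 in wild-type cells. As log2 values minus the 6-array mean, they averaged 0.41, 1.10 and -0.24 in Tet2-/- replicates 4, 5 and 6. The wild-type replicates were at -0.54, -0.44 and -0.29. Of the 7 genes, 3 lay below the array median on all 6 arrays. T-cell markers (6 of 7 measured, 3 higher and 3 lower) summed to 23.4 to 27.2 and 22.4 to 27.0, neutrophil markers (8 of 8, 6 higher and 2 lower) to 87.5 to 184 and 104 to 118, and mast cell markers (7 of 7, 4 higher and 3 lower) to 31.1 to 34.2 and 30.9 to 32.2, each in Tet2-/- and wild-type cells in that order. With all 6 arrays none of these marker genes passed limma's test over all probe sets. Without Tet2-/- replicate 6 the B-cell antigen receptor gene Cd79a passed (difference 2.22, limma adjusted p = 0.0307), and the median of the B-cell list was 1.515, against 0.95 with all arrays. The other tallies also moved without that array, to 3 higher and 6 lower for gastric, 7 higher and 2 lower for mesothelial and epithelial, 1 higher and 5 lower for T-cell, 4 higher and 4 lower for neutrophil and 6 higher and 1 lower for mast cell markers, while that of eosinophil markers was the same. Their part in the level of Slc9a4 was not tested.

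With all 6 arrays, none of the measured genes beside Slc9a4 on chromosome 1 separated the genotypes. In the RefSeq order of coding genes Slc9a4 lies between Il18rap, an interleukin-18 receptor chain, and its own relative Slc9a2, in a stretch that holds the interleukin-1 receptor family. Of the 6 measured genes on each side, none of 12 passed limma's test (adjusted p = 0.998 for each), none had an unadjusted p under 0.05 and none had groups that did not overlap. Il18rap was at 1.97, 2.03 and 1.69 log2 units in Tet2-/- replicates 4, 5 and 6, against 1.59, 1.82 and 1.79 in wild-type replicates, a difference of 0.16 (95% confidence interval -0.17 to 0.49). Il1r1, the signalling receptor for interleukin-1, and Il1rl2, the receptor for interleukin-36, differed by 0.14 (-0.51 to 0.80) and -0.18 (-0.62 to 0.26). The decoy receptor gene Il1r2 and the other interleukin-18 receptor chain gene Il18r1 differed by -0.13 and -0.19 and lay below the array median on all 6 arrays. Beyond Slc9a2, the transporter gene Mfsd9 differed by -0.0067 and Tmem182, a muscle membrane protein gene, by -0.32 (-0.73 to 0.087). The other 4 neighbours, Gm16894, 4930448I06Rik, Pantr1 and the neural transcription factor gene Pou3f3, differed by -0.06, -0.10, -0.010 and 0.16. Without Tet2-/- replicate 6 the groups did not overlap for 5 of the 12, Slc9a2, Il18rap, Tmem182, 4930448I06Rik and Pantr1, beside 25.7% of all probe sets, and none passed limma's test. Tmem182 then differed by -0.52 (-0.80 to -0.23, limma adjusted p = 0.257), the neighbour farthest from 0. Il18rap and Il1r1 were then at 0.27 and 0.29, Il1rl2 at 0.018, Mfsd9 at 0.088, Gm16894 at -0.095, Pantr1 at -0.10 and Pou3f3 at -0.012.

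**Figure D4:**
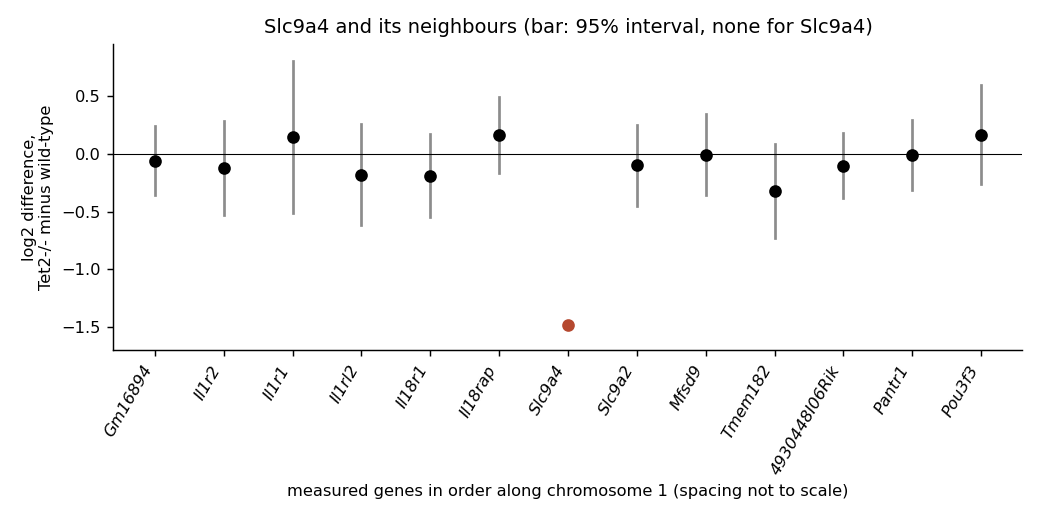
Log2 difference, Tet2-/- minus wild-type, of Slc9a4 (red) and the 6 measured genes on each side of it in their order along chromosome 1. Bars are 95% confidence intervals from limma for the 12 neighbours. The neighbours lie between -0.32 and 0.16 and all their intervals include 0, while Slc9a4 lies at -1.49.

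The genes whose course over the 6 arrays was most like that of Slc9a4 were found by the root-mean-square distance between profiles, each taken as log2 values minus the gene's 6-array mean. The nearest of the 23184 other named genes was Itgax, the gene of the integrin chain CD11c, at 0.281 log2 units. It was at 5.68, 5.22 and 5.59 in Tet2-/- replicates 4, 5 and 6, against 7.05, 6.80 and 7.11 in wild-type replicates, a difference of -1.49. Cmbl, a hydrolase gene, followed at 0.291, the secretoglobin gene Scgb1a1 at 0.307, Plau, the urokinase gene, at 0.317, Eps8, an actin-capping protein gene, at 0.326 and G530011O06Rik at 0.331. Their differences were -1.03, -1.65, -1.14, -0.94 and -1.01 in that order. Chosen for likeness to a gene that separates the groups, they separate them by construction. The other 6 exchangers were at distances of 0.715, for Slc9a2, to 0.897, for Slc9a9.

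Genes for other routes of acid and sodium were read from 10 lists with 127 genes, of which 114 were measured. None passed limma's test over all probe sets, and 7 of the 114 had an unadjusted p under 0.05, beside 3.61% of all probe sets. Of these 7 genes 5 belong to the vacuolar proton pump. The median difference over all named probe sets was -0.0033, with 50.05% of them lower in Tet2-/- cells. Without Tet2-/- replicate 6 that median was -0.025.

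Relatives and partners of the exchangers had small differences with all 6 arrays. All 3 measured genes of the further exchanger families, Slc9b1, Slc9c1 and Slc9b2, had the lower mean in Tet2-/- cells, with differences of -0.15, -0.12 and -0.097, and lay below the array median on all 6 arrays. They differed by -0.28, -0.20 and -0.18 without Tet2-/- replicate 6. Slc9c1 is known from sperm. Of 12 measured regulators of the exchangers 4 were higher and 8 lower, with a median difference of -0.06, but without Tet2-/- replicate 6 the counts were 6 and 6 and the median 0.0083. Sgk1, a kinase that acts on NHE3, was at 8.14, 7.99 and 7.89 log2 units in Tet2-/- replicates, against 8.46, 8.15 and 8.16 in wild-type replicates, a difference of -0.25 (limma adjusted p = 0.998). The calmodulin genes Calm3 and Calm2, whose protein regulates exchangers in other cells, differed by -0.20 and -0.16, or by -0.067 and -0.265 without that array.

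The other transport lists had small median differences, several of which turned or moved without Tet2-/- replicate 6. Of 15 bicarbonate transporters 4 were higher and 11 lower (median -0.097). Slc4a9, an anion exchanger gene of the kidney, was at 2.18, 2.06 and 2.02 in Tet2-/- and at 2.35, 2.37 and 2.39 in wild-type cells, a difference of -0.28 (limma adjusted p = 0.998) at a level below the array median. Slc26a11 and the widely expressed anion exchanger gene Slc4a2 differed by -0.20 and -0.18, and without Tet2-/- replicate 6 Slc26a11 was at -0.12. Of 16 genes of the carbonic anhydrase family, named for enzymes that interconvert carbon dioxide and bicarbonate, 9 were higher and 7 lower (median 0.0067). The counts were 3 higher and 13 lower (median -0.079) without that array. Car13 differed by -0.40, Car11 by -0.25 and Car9, the hypoxia-induced form, by 0.12. Of 5 genes for proton-linked lactate transport 4 were higher and 1 lower (median 0.017), with Slc16a3, which exports lactate, at 0.16, the chaperone gene Bsg at -0.10 and Slc16a1 at 0.033. All 5 were higher (median 0.07) without Tet2-/- replicate 6, with Bsg at 0.047 and Slc16a1 at 0.098. Slc16a3 was then at 0.40 (95% confidence interval 0.074 to 0.72, limma adjusted p = 0.433). Its groups did not overlap, beside 25.7% of all probe sets without that array.

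Of 7 genes for proton channels and proton-potassium pumps 3 were higher and 4 lower (median -0.13), or 2 higher and 5 lower (median -0.015) without Tet2-/- replicate 6. Hvcn1, the voltage-gated proton channel that serves the respiratory burst, was at 8.54, 8.01 and 7.63 in Tet2-/- replicates against 8.38, 8.15 and 8.34 in wild-type replicates, a difference of -0.23, or -0.015 without Tet2-/- replicate 6. The proton channel genes Otop3 and Otop1 differed by -0.20 and 0.14, or by -0.32 and 0.052 without that array. Of 11 genes of the sodium-potassium pump, which maintains the sodium gradient the exchangers use, 6 were higher and 5 lower (median 0.013). Its regulator Fxyd5 differed by 0.34, the subunit gene Atp1b3 by -0.12 and Fxyd1 by -0.15. The list had 4 higher and 7 lower (median -0.032) without Tet2-/- replicate 6, and Atp1b3 was at -0.032. Fxyd5 was then at 0.52 (0.18 to 0.85, limma adjusted p = 0.344) and Fxyd1 at -0.32 (-0.62 to -0.028, limma adjusted p = 0.483). Both had groups that did not overlap, beside 25.7% of all probe sets without that array. Of 9 acid-sensing receptors and channels 4 were higher and 5 lower (median -0.043), with the receptor Gpr132 at 0.16 and the channels Asic1 and Asic2 at -0.097 and -0.11. The counts were the same without that array, the median was -0.015, and Asic1 and Asic2 were at -0.015 and -0.017.

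The vacuolar proton pump, which loads the organelles that Slc9a7, Slc9a8 and Slc9a9 drain, had 19 of 23 measured subunit genes with the lower mean in Tet2-/- cells and 4 with the higher (median -0.18). None passed limma's test over all probe sets, and for 4 of the 23, or 17.4%, the groups did not overlap, beside 4.07% of all probe sets lower in the same way. That share counts dim and bright probe sets alike, whereas 18 of the 23 genes lay above the array median on all 6 arrays. Atp6v1e1, the stalk subunit gene, was at 9.10, 8.97 and 9.04 log2 units in Tet2-/- replicates, against 9.42, 9.52 and 9.36 in wild-type replicates, which gave a difference of -0.40 (SE 0.125, limma adjusted p = 0.998). Tcirg1, the a3 subunit gene of lysosome and osteoclast pumps, was at 8.06, 7.79 and 7.65 in Tet2-/- and at 8.29, 8.16 and 8.44 in wild-type cells, a difference of -0.46. Atp6v1e2, a stalk subunit form known from testis, differed by -0.46. The list median was -0.13 without Tet2-/- replicate 6, with 3 higher and 20 lower.

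Of 13 ion carriers of endosomes and lysosomes 12 had the lower mean in Tet2-/- cells and 1 the higher (median -0.18). Mcoln3, an endosomal calcium channel gene, was at 5.79, 4.56 and 5.51 in Tet2-/- replicates against 6.31, 6.37 and 5.71 in wild-type replicates, a difference of -0.84 (limma adjusted p = 0.998) that was -0.48 without Tet2-/- replicate 5. The chloride-proton exchanger gene Clcn6 and the lysosomal sodium channel gene Tpcn2 differed by -0.31 and -0.25, or by -0.15 and -0.15 without Tet2-/- replicate 6. Without Tet2-/- replicate 6 the list median was -0.062, with 4 higher and 9 lower.

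**Figure D5:**
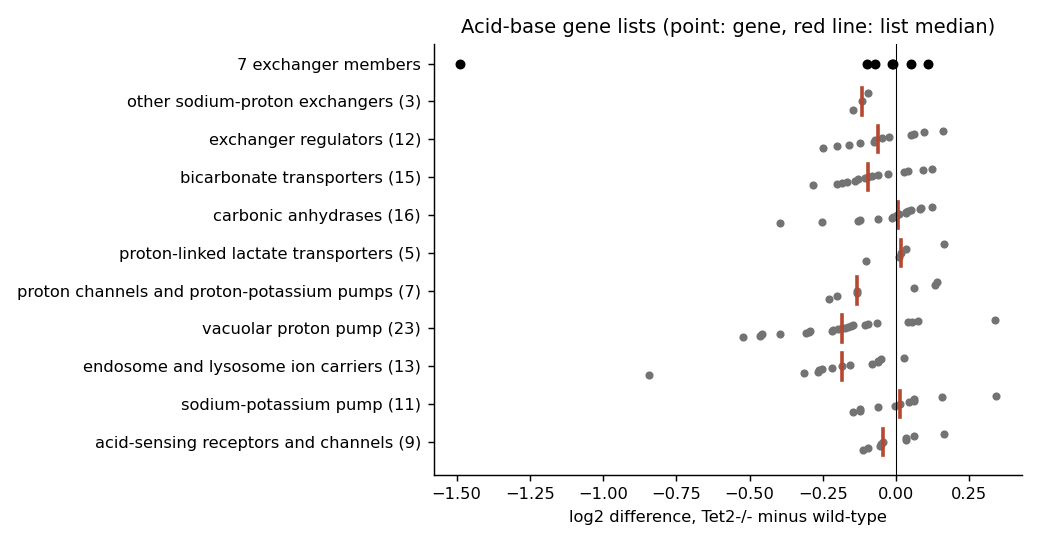
Log2 difference, Tet2-/- minus wild-type, of the genes of 10 acid-base lists (grey points, number measured in brackets) with the list medians (red lines), and of the 7 exchangers (black points, top row). The list medians run from -0.18 to 0.017. Slc9a4, at -1.49, is the point farthest to the left.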

How the data were processed

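RNA of 6 samples was measured on Affymetrix whole-transcript arrays, 3 per genotype, grouped by title. Per the submitters' processing notes, the authors made the deposited log2 values with affy 1.36.1 by RMA, which subtracts background, equalizes array distributions and summarises probes. The log2 scale was read from the values, and joint normalization of the arrays is not given in the sources used here. The authors' annotation named 23185 of the 25206 probe sets with 1 gene, all found in RefSeq (GRCm38.p6), and 2021 stayed unnamed. RefSeq served for names, gene order and promoters. No array pair was identical (at most 2.42% of values equal).

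Tests were limma 3.58.1 in R 4.3.3 (lmFit, eBayes, two-sided, no covariate), adjusted by Benjamini-Hochberg over all probe sets, with a threshold of 0.05. The procedure was tested on simulated data. Members and lists were chosen with earlier results of these data known. Listed genes were matched by symbol, then by an unambiguous synonym. Named were all members, Tet2, the 6 measured neighbours on each side, the 6 nearest profiles and, per acid-base list, the 3 genes with the smallest p. Siglecf, Cd79a and the markers beside them were named after their values were seen. Alternatives were the grouping by characteristic, a replicate block, trend and robust variances, array weights, median centring, quantile normalization, a brightness filter and leaving out single arrays.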

Additional observations from a re-analysis of the deposited data

How the results depend on the processing

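The difference of Slc9a4 kept its direction and moved by less than the spread between replicates under all alternatives except one: with the genotype taken from the characteristic in place of the title it was 0.65, in the opposite direction. It was -1.65 to -1.35 when single arrays were left out. The gene was selected for a consistent fall under the grouping by title, so this steadiness supports nothing further. Correlations of same-numbered deviations were 0.15, -0.22 and 0.11. With 3 arrays per group they cannot settle whether equal replicate numbers pair the samples. With the replicate number as a block the difference of Slc9a4 was -1.49 and the count past the threshold 0. Over all probe sets that count was 0, but 2 with array weights and 0 to 19 when single arrays were left out (19 when Tet2-/- replicate 6 was dropped, 1 when wild-type replicate 4 was). No other exchanger, neighbour or acid-base gene passed under any alternative run.

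Of 75 values of the other 6 exchangers under alternatives, 12 changed sign. By the characteristic Slc9a3 was at 0.073 and Slc9a7 at 0.04, and with array weights Slc9a7 was at 0.12. When single arrays were left out, differences ran from -0.068 to 0.08 for Slc9a3, -0.065 to 0.06 for Slc9a5, -0.21 to 0.15 for Slc9a7, -0.072 to 0.26 for Slc9a8 and -0.05 to 0.41 for Slc9a9. The causes were not tested. The 3 arrays per group and the dim level of Slc9a2, Slc9a3, Slc9a5 and, in Tet2-/- cells, Slc9a4 limit what could be seen.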
